A study of Mus musculus with 6 samples.

Results

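The genes described here are 10 genes of the mouse corpus luteum, followed across 6 ovaries. They are Prlr, Ptgfr, Akr1c18, Parm1, Sfrp4, Cyp2e1, Pcolce2, Onecut2, Apoa4 and Ptgr1. They were found by the gene name that the scanner files give each probe, which matched 12 probes out of 39429, for 10 gene names out of 31693. A filter on low signal kept 11 of the 12 probes and 9 of the 10 genes, and left out Pcolce2. The ovaries came from female C57BL/6J mice aged 20 weeks, 3 of them wild type and 3 with a knockout of the selenium-binding protein 1 gene (SeBP1 in the labels, gene symbol Selenbp1). No treatment is named in the labels. RNA of each ovary sample was labelled with the dye Cy3 and hybridised to its own Agilent array. The promoter or Cre behind the knockout, the deleted stretch, the stage of the oestrous cycle and pooling of animals are not given in the sources used here, so p-values measure only the spread between these samples.

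The corpus luteum forms from the follicle after ovulation and makes progesterone from cholesterol. In rodents, prolactin acting on its receptor maintains the gland, and prostaglandin F2 alpha acting on its own receptor brings about its regression. As the rodent gland regresses, 20-alpha-hydroxysteroid dehydrogenase turns progesterone into an inactive steroid. Old and new corpora lutea lie side by side in a cycling mouse ovary, and a whole ovary is read as their mixture with follicles and stroma.

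The probes of these genes are 60 bases long, and some of them are shown here by their first 30 bases. The letters run 5′ to 3′, in lower case with no base marked. They are shown because each value is the signal of a whole probe and not of a whole transcript. They are given as the scanner files hold them.
Prlr: caggttaacactacagagtcatgaaggaat
Ptgfr: tgtccttgagtagaacacacatttgagttt
Akr1c18: ccaatcactgcttagcaactcacccccagt
Sfrp4: cacagttgtctgtgtgcatactgtgtaaga
Cyp2e1: ttcctcgttcatgagacctgctgcccatca
Pcolce2: tcatgccaaacagctttgtcaaaatgttca
By the coordinates in the files (build mm9), the stretch for Prlr is chr15:10259066-10259095 on the plus strand, and that for Ptgfr is chr3:151464353-151464382 on the minus strand. The stretch for Akr1c18 is chr13:4131925-4131954 on the minus strand, and that for Sfrp4 is chr13:19724488-19724517 on the plus strand. Cyp2e1 is read at chr7:147960628-147960657 and Pcolce2 at chr9:95595436-95595465, both on the plus strand. The place of the probes in exons or untranslated regions was not worked out here. Akr1c18 belongs to a family of similar neighbouring genes, so cross-hybridisation from its relatives is uncertain.

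Signal is given on a log2 scale on which 0 is the 75th percentile of the processed intensities of that array, and levels of different probes are not set against each other. That percentile lay between 1309 and 1759 intensity units, and the share of spots well above background ran from 61.6% (wild type replicate 3) to 69.3%. The median coefficient of variation between spots of 1 probe was 6.44% in wild type replicate 3 and 2.36% to 3.40% elsewhere. Wild type replicates 1 and 2 were on 1 slide, and wild type replicate 3 shared the other slide with the 3 knockouts. Some libraries stood apart. Knockout replicate 2 was low in several luteal genes, wild type replicate 1 was high in fat cell genes and wild type replicate 2 was high in oviduct genes, as given below. The targeted gene, Selenbp1, was at 2.60 ± 0.08 in the wild types and -0.15 ± 0.20 in the knockouts (SD, n = 3, limma, adjusted p = 0.0104). Of 8 luteal markers outside the 10 genes, 7 were well above background on all 6 arrays, and Hsd3b1 was so on the 4 arrays where its spot was not marked as an outlier.

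Prlr encodes the prolactin receptor. Its brighter probe read 2.97, 2.74 and 3.81 in wild type replicates 1, 2 and 3 and 3.74, 1.40 and 2.83 in knockout replicates 1, 2 and 3. Wild type replicate 3 and knockout replicate 1 were the highest and lay close together, knockout replicate 2 was the lowest, and the genotypes overlapped. The highest ovary was 5.28-fold above the lowest, and knockout replicate 2 was 2.53-fold below the next lowest. A second Prlr probe read 0.62, 0.47 and 1.86 in wild type and 1.56, -0.78 and 0.59 in the knockout, in the same order of replicates. Its order of ovaries was that of the first probe, and Pearson's r between the 2 probes over the 6 arrays was 0.99.

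Ptgfr encodes the receptor for prostaglandin F2 alpha. It read 0.63, 1.06 and 1.80 in the wild types and 2.65, -2.42 and 1.34 in the knockouts, or 2723, 3305, 4568, 10317, 278 and 4205 intensity units before scaling. Both the highest and the lowest ovary were knockouts, a 33.7-fold range, while the wild types spanned 2.25-fold. Knockout replicate 2 was 8.30-fold below the next lowest ovary, and the wild types lay inside the range of the knockouts. In RNA of a whole ovary, fewer luteal cells and less RNA per luteal cell cannot be told apart.

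Akr1c18 encodes 20-alpha-hydroxysteroid dehydrogenase, the enzyme that inactivates progesterone. It had the largest SD of the 9 genes kept. Wild type replicates 1, 2 and 3 read 2.65, 0.59 and -2.23, and knockout replicates 1, 2 and 3 read 2.95, -1.65 and 3.76. Knockout replicate 3, knockout replicate 1 and wild type replicate 1 formed a high trio, wild type replicate 2 lay between, and knockout replicate 2 and wild type replicate 3 were low. The range was 63.6-fold over the 6 ovaries, 29.4-fold among the wild types and 42.4-fold among the knockouts. Ptgr1 encodes prostaglandin reductase 1, which takes part in the breakdown of prostaglandins and leukotriene B4. It read 1.11, 0.84 and 0.87 in wild type and 0.64, 1.14 and 0.81 in the knockout, a range of 1.41-fold. Ptgr1 was the only 1 of the 9 genes whose SD over the 6 arrays, 0.19, was not above the median SD of all kept probes, 0.195 (24415 probes).

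Sfrp4 encodes a secreted antagonist of Wnt signalling. Its wild-type values of 4.81, 4.64 and 5.15 were nearly equal, and its knockout values were 5.95, 0.27 and 5.26. The same ovaries gave 49199, 39545, 46327, 101526, 1798 and 63413 intensity units. Knockout replicates 1 and 3 were the 2 highest ovaries, and knockout replicate 2 was 20.8-fold below the next lowest. No other gene of the 10 had a gap of that size at either end of its range.

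Pcolce2 encodes an enhancer of the protease that trims procollagen. It was well above background in only 3 ovaries, wild type replicate 1 at -4.99, knockout replicate 1 at -4.45 and knockout replicate 3 at -2.90. Wild type replicates 2 and 3 and knockout replicate 2 were not well above background, at measured values of -6.02, -7.07 and -7.58. The 3 ovaries with signal were the high trio of Akr1c18. Onecut2, a transcription factor of the Onecut homeobox family, read -1.31, -3.09 and -4.04 in wild type and -0.65, -3.63 and -0.44 in the knockout. Its ovaries were in the same order as those of Akr1c18, with a range of 12.1-fold.

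Cyp2e1 encodes a cytochrome P450 that oxidises ethanol and other small molecules. Its brighter probe read -0.20, -3.27 and -2.55 in wild type and -3.38, -3.86 and -3.77 in the knockout. Wild type replicate 1 was 5.10-fold above the next ovary, and the 5 others lay within 2.48-fold of each other. Every knockout was below every wild type on this probe, by 1.08-fold at the closest. The second Cyp2e1 probe read -1.95, -4.97 and -4.00 in wild type and -4.69, -5.06 and -4.77 in the knockout, and its genotypes overlapped at wild type replicate 2. Pearson's r between the 2 probes over the 6 arrays was 0.99.

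Parm1 encodes a mucin-like membrane protein. It read 0.80, 1.53 and 2.40 in wild type and 0.95, 1.46 and 1.16 in the knockout, so that the wild types held both its highest and its lowest ovary, 3.02-fold apart. Apoa4, an apolipoprotein of lipid-carrying particles in blood, read 0.84, 0.95 and -0.22 in wild type and 0.62, 1.30 and 0.72 in the knockout. Wild type replicate 3 was the highest ovary for Parm1 and the lowest for Apoa4, where it was 1.79-fold below the next.

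**Figure D1:**
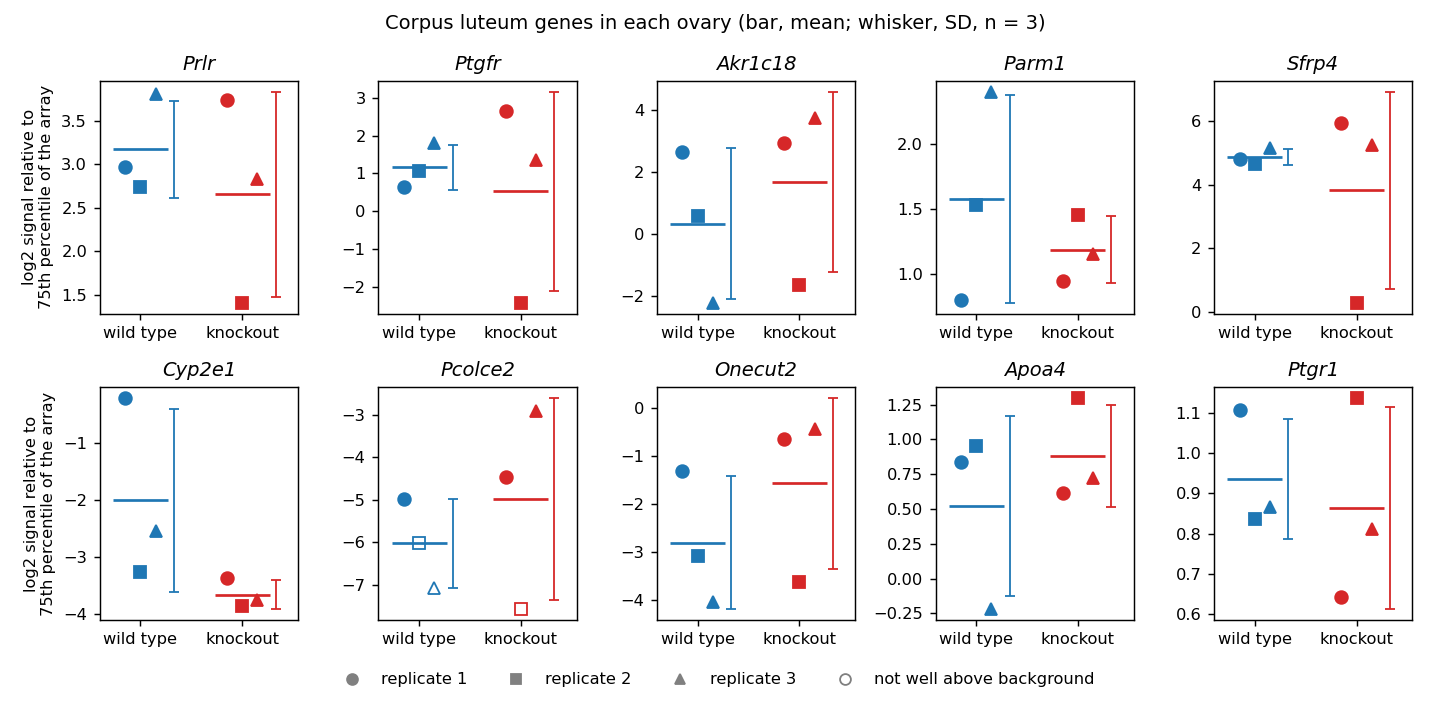
Log2 signal (y axes, 0 at the 75th percentile of the array, a separate scale for each gene) of the 10 genes in wild type (blue) and knockout (red) ovaries, with the brighter probe shown for Prlr and Cyp2e1. Each symbol is 1 ovary, the bar is the mean and the whisker the SD (n = 3), and open symbols were not well above background. Knockout replicate 2 (red square) lies alone at the bottom for Ptgfr and Sfrp4, and wild type replicate 1 (blue circle) alone at the top for Cyp2e1.

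Read ovary by ovary, the 10 genes gave different pictures for the same genotype. After the mean of each gene over the 6 arrays was subtracted, the mean over the 10 genes was 0.57, -0.16 and -0.37 in wild type replicates 1, 2 and 3 and 0.75, -1.51 and 0.72 in knockout replicates 1, 2 and 3. In knockout replicate 2, Prlr, Ptgfr and Sfrp4 were together 2.95 below their own means and Akr1c18, Onecut2 and Pcolce2 were 2.06 below theirs, while Apoa4 was 0.60 above its mean and Ptgr1 0.24 above. Wild type replicate 3 split the 2 trios, with Prlr, Ptgfr and Sfrp4 at 0.88 and Akr1c18, Onecut2 and Pcolce2 at -2.22. Knockout replicate 1 was high in both trios, at 1.41 and 1.51. Knockout replicate 3 was at 0.44 and 2.37, and wild type replicate 1 at 0.10 and 1.01. In wild type replicate 2 the trios were at 0.11 and -0.61. Pcolce2 enters these means at its measured values, which were not well above background in wild type replicates 2 and 3 and knockout replicate 2. The trios were formed after the values were seen, so their means are a description.

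**Figure D2:**
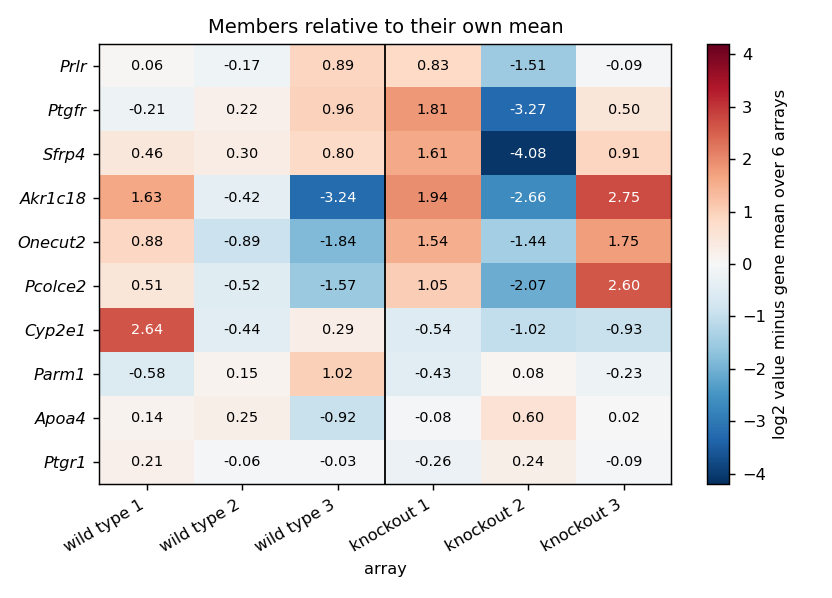
Log2 signal of each gene minus its own mean over the 6 arrays (colour and printed value), with genes in rows and ovaries in columns, wild type left of the line and knockout right of it. Prlr, Ptgfr and Sfrp4 are at -1.51 to -4.08 in knockout replicate 2, and Akr1c18 is at -3.24 in wild type replicate 3 and -2.66 in knockout replicate 2.

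Correlations over the 6 ovaries were computed for the 36 pairs among the 9 genes that were well above background on every array. Pearson's r was above 0 in 20 pairs. In an exact permutation test over all pairings (two-sided), 8 pairs had an unadjusted Pearson p under 0.05 and 4 an unadjusted Spearman p under 0.05, and 0 pairs passed after Benjamini-Hochberg adjustment over the 36 by either measure. The smallest adjusted p was 0.100 for both. With 6 ovaries and 36 pairs, the permutations give no p small enough for a single pair alone to pass. The count of 0 therefore cannot decide whether single pairs varied together. With 2 arrays on 1 slide and 4 on the other, no slide held enough arrays for a value of its own.

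Akr1c18 and Onecut2 had the highest r, 0.98, with a Spearman rho of 1.00 (exact permutation p = 0.00278 for each, adjusted p = 0.100). That p is the smallest the permutations can give for Spearman's rho. Without wild type replicate 3 and knockout replicate 2, the 2 ovaries farthest from the Akr1c18 median, r was 0.98. Leaving out any 1 ovary gave between 0.97 and 1.00 for this pair. Pcolce2, which was measured above background in 3 ovaries, had an r of 0.95 with Akr1c18 and 0.94 with Onecut2, given as a description.

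Prlr, Ptgfr and Sfrp4 also had r above 0.9 with each other, values that rested in part on 1 ovary. Ptgfr and Sfrp4 had an r of 0.98 and a rho of 0.89 (exact permutation p = 0.00694 and 0.0333, adjusted p = 0.125 and 0.300). Without knockout replicates 1 and 2 their r was 0.67, and without knockout replicate 2 alone it was 0.91. Prlr had an r of 0.95 and a rho of 0.77 with Ptgfr (exact permutation p = 0.0153 and 0.103, adjusted p = 0.158 and 0.446). For this pair r was 0.87 without wild type replicate 3 and knockout replicate 2, and 0.80 without knockout replicate 2 alone. Prlr and Sfrp4 had an r of 0.91 and a rho of 0.71 (exact permutation p = 0.0264 and 0.136, adjusted p = 0.158 and 0.446). Their r was 0.89 without wild type replicate 3 and knockout replicate 2, and 0.67 without knockout replicate 2 alone.

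The receptor genes and Sfrp4 had lower r with the enzyme that inactivates progesterone, and these values depended on single ovaries. Without wild type replicate 3 r with Akr1c18 was 0.84 for Ptgfr, 0.83 for Prlr and 0.90 for Sfrp4. Without knockout replicate 2 alone it was -0.055 for Ptgfr, -0.44 for Prlr and 0.30 for Sfrp4. Ptgfr and Akr1c18 had an r of 0.46 and a rho of 0.26 (exact permutation p = 0.410 and 0.658, adjusted p = 0.771 and 1.00). Without knockout replicates 1 and 2 their r was -0.63. Prlr and Akr1c18 had an r of 0.24 and a rho of -0.029 (exact permutation p = 0.679 and 1.00, adjusted p = 0.906 and 1.00), with 0.33 after leaving out wild type replicate 3 and knockout replicate 2. Akr1c18 and Sfrp4 had an r of 0.56 and a rho of 0.60 (exact permutation p = 0.228 and 0.242, adjusted p = 0.586 and 0.544), with 0.60 after leaving out wild type replicate 3 and knockout replicate 2. Of the negative pairs, Prlr and Apoa4 had the most negative rho, -0.94, with an r of -0.82 (exact permutation p = 0.0167 for rho and 0.0583 for r, adjusted p = 0.300 and 0.233), and an r of -0.79 without wild type replicate 3 and knockout replicate 2. Ptgfr and Apoa4 had an r of -0.67 and a rho of -0.89 (exact permutation p = 0.20 and 0.0333, adjusted p = 0.585 and 0.300), and their r was -0.83 without knockout replicates 1 and 2. The most negative r was that of Ptgfr and Ptgr1, with an r and a rho of -0.83 (exact permutation p = 0.0236 and 0.0583, adjusted p = 0.158 and 0.300) and an r of -0.71 without knockout replicates 1 and 2. Akr1c18 and Parm1 also had an r of -0.83, with a rho of -0.71 (exact permutation p = 0.0236 and 0.136, adjusted p = 0.158 and 0.446), and an r of -0.68 without wild type replicate 3 and knockout replicate 2. Parm1 and Onecut2 had an r of -0.82 and a rho of -0.71 (exact permutation p = 0.0319 and 0.136, adjusted p = 0.164 and 0.446). Without wild type replicates 1 and 3 their r was -0.90.

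**Figure D3:**
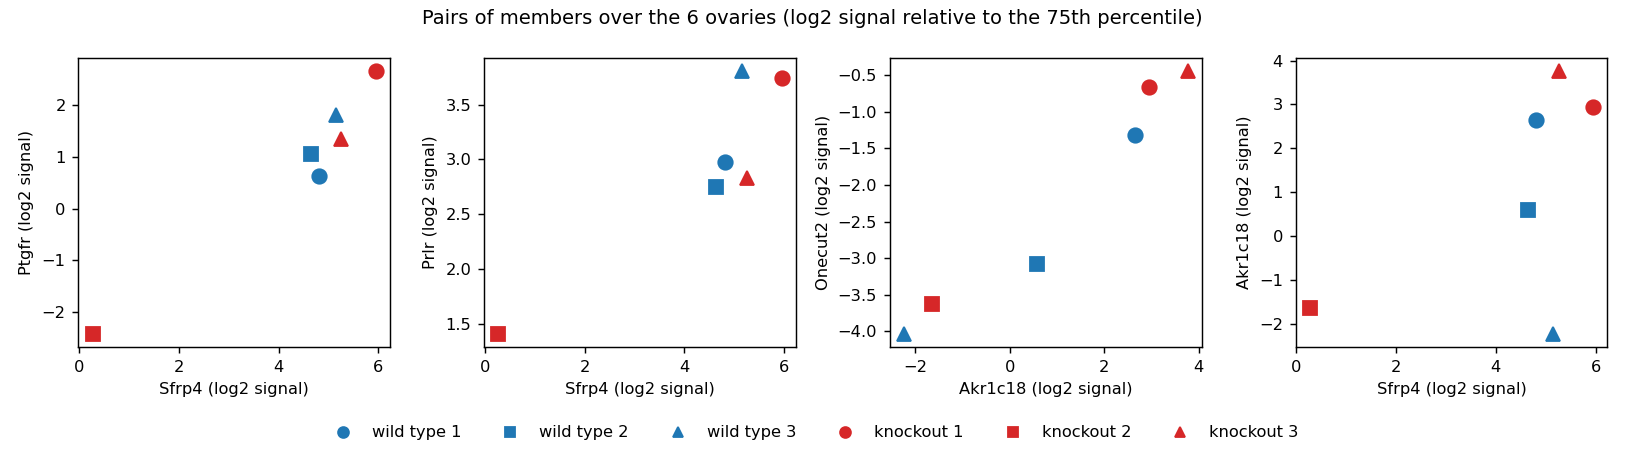
Log2 signal of 1 gene against another for 4 pairs, with 1 symbol per ovary (blue wild type, red knockout). Akr1c18 and Onecut2 rise together through all 6 ovaries (r of 0.98). In the pairs with Sfrp4 on the x axis, 5 ovaries lie close together along that axis and knockout replicate 2 lies far to the left.

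Loss of Selenbp1 was compared with wild type to ask whether it affects expression in the ovary, and 0 of the 9 genes kept passed the threshold of an adjusted p under 0.05 (limma, Benjamini-Hochberg over 24415 probes). Over all probes 1 was called, that of Selenbp1, or 0.0041%. By probe, 0 of 11 had an unadjusted p under 0.05, against 3.95% of all kept probes. In the knockout mean 3 genes were higher and 6 lower, with a median log2 difference of -0.39, beside -0.017 over 19412 genes, of which 8838 were higher. Without knockout replicate 2 the split was 6 higher and 3 lower and the median 0.15, and with array weights the median was -0.028. It was -0.11 when wild type replicate 3 was left out, -0.62 when wild type replicate 1 was, and -1.12 with the slide as a block. Genotypes did not overlap in 1 of the 12 probes, against 8.96% of all kept probes, and that probe was of Cyp2e1.

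The intervals were wide for the genes that varied most between ovaries. Sfrp4 was at 4.86 ± 0.26 in the wild types and 3.83 ± 3.10 in the knockouts (SD, n = 3), a log2 difference of -1.04 with a 95% interval of -4.48 to 2.40 (limma, adjusted p = 1.00). For Ptgfr the levels were 1.17 ± 0.59 and 0.52 ± 2.64, and the difference was -0.64 (interval -3.63 to 2.34). Prlr, at 3.17 ± 0.56 and 2.66 ± 1.18, differed by -0.52 (interval -1.97 to 0.94), and its second probe by -0.53. All 3 changed sign without knockout replicate 2, to 0.74 for Sfrp4, 0.83 for Ptgfr and 0.11 for Prlr. Within the slide that held both genotypes, where wild type replicate 3 is the sole control and which decides the fit with the slide as a block, they were at -1.32, -1.28 and -1.15.

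Akr1c18 was at 0.33 ± 2.45 in wild type and 1.69 ± 2.92 in the knockout (SD, n = 3), a difference of 1.36 with an interval of -2.85 to 5.56 (limma, adjusted p = 1.00). Its difference ran from 0.072 without wild type replicate 3 to 3.02 without knockout replicate 2, and was 3.92 with the slide as a block. Onecut2, at -2.81 ± 1.38 and -1.58 ± 1.78, differed by 1.24 (interval -1.26 to 3.73), or 0.62 when wild type replicate 3 was left out and 2.26 when knockout replicate 2 was, with 2.46 for the slide as a block. Pcolce2 was above background in 1 wild-type and 2 knockout ovaries and was fitted only without the filter, at 1.05 (standard error 1.24, limma adjusted p = 0.963).

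Cyp2e1 was at -2.01 ± 1.61 in wild type and -3.67 ± 0.26 in the knockout (SD, n = 3), a difference of -1.66 with an interval of -3.47 to 0.15 (limma, adjusted p = 1.00). Without wild type replicate 1 the difference was -0.76, and with the slide as a block -1.12. Its second probe differed by -1.20, or -0.35 without wild type replicate 1. Parm1, at 1.58 ± 0.80 and 1.19 ± 0.26, differed by -0.39 (interval -1.34 to 0.56), with 0.021 without wild type replicate 3 and -1.21 with the slide as a block. Apoa4 was at 0.52 ± 0.65 and 0.88 ± 0.37, a difference of 0.36 (interval -0.49 to 1.20), with -0.015 without wild type replicate 3 and 1.10 with the slide as a block. Ptgr1 had the narrowest interval of the 9 genes, -0.46 to 0.32 around a difference of -0.072, at 0.94 ± 0.15 in wild type and 0.86 ± 0.25 in the knockout.

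**Figure D4:**
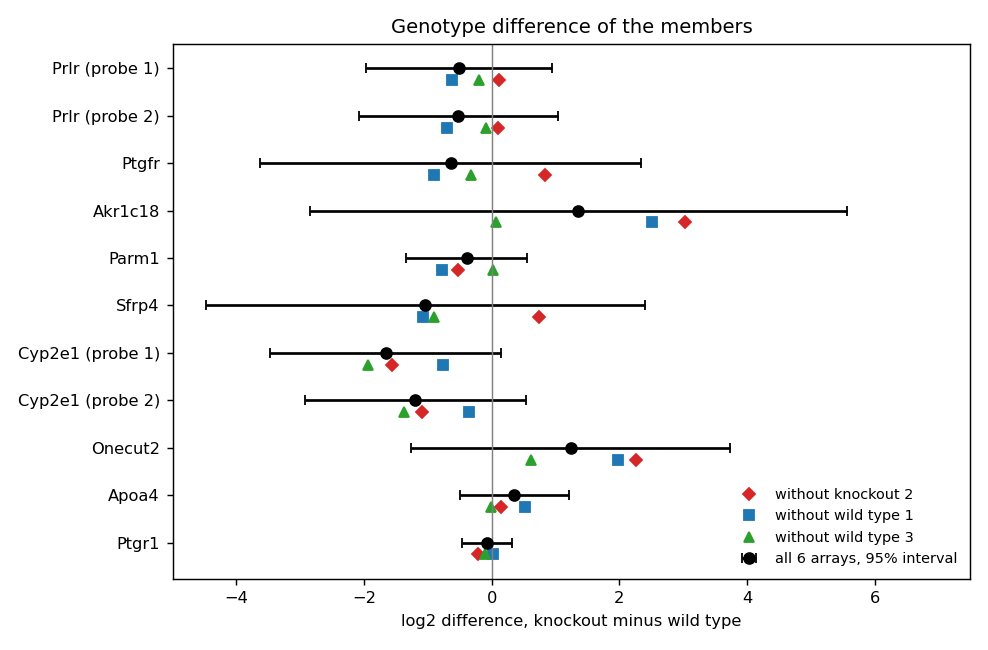
Log2 difference, knockout minus wild type (x axis), for the 11 kept probes (rows), with the 95% interval from limma over the 6 arrays (black) and the difference without knockout replicate 2, wild type replicate 1 or wild type replicate 3 (coloured symbols). Every black interval spans 0, and the red diamonds of Prlr, Ptgfr and Sfrp4 lie on the other side of 0 from the black points.

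Luteal genes outside the 10 were, by their median, lowest in knockout replicate 2 as well. In a list of 12 such genes, 2 were higher and 10 lower in the knockout mean, 0 passed the threshold, and the median difference was -0.39. The median was -0.12 without wild type replicate 3. It was -0.13 without knockout replicate 2, -0.61 without knockout replicate 1 and -1.17 with the slide as a block. By ovary, the list median relative to each gene's mean was -0.13, -0.11 and 0.88 in wild type and 0.28, -0.85 and 0.023 in the knockout, so that wild type replicate 3 was highest and knockout replicate 2 lowest. Lhcgr, the receptor for luteinising hormone, read 0.21, -0.26 and 1.44 in wild type and 0.53, -2.77 and -0.047 in the knockout, and differed by -1.22 (standard error 0.90). Tspo, a mitochondrial protein linked to cholesterol import, differed by -0.34, and Scarb1, the receptor that takes up cholesterol from high-density lipoprotein, by -0.47 (standard errors 0.26 and 0.38).

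Among 12 genes of prolactin signalling, 4 were higher and 8 lower, with 0 called and a median of -0.26. An unadjusted p under 0.05 was reached by 1 of them in limma, beside 3.95% of all kept probes. This list shares Lhcgr, Hsd17b7 and Cdkn1b with the list of luteal genes, so they are not independent. The list median was highest in wild type replicate 3, at 0.71, and lowest in knockout replicate 2, at -0.51. Cish, a feedback inhibitor induced by STAT5, read 0.29, 1.13 and 3.13 in wild type and 0.39, -1.35 and 0.98 in the knockout, with a difference of -1.51 and a standard error of 0.87. Esr1, the estrogen receptor alpha gene, differed by -0.43 (standard error 0.16, limma adjusted p = 1.00). Leaving out wild type replicate 3 gave a list median of -0.025, and leaving out knockout replicate 2 gave -0.070. With the slide as a block it was -0.81.

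Genes of luteal regression numbered 13 kept of 16, without Fasl, Ptgs2 and Tnf, and split into 7 higher and 6 lower around a median of 0.026. None passed the threshold in limma, and 2 had an unadjusted p under 0.05, beside 3.95% of all kept probes. Nr4a1, a nuclear receptor and immediate early gene, was at 2.98 ± 0.36 in wild type and 4.69 ± 0.53 in the knockout, Il1b, the cytokine interleukin 1 beta, was at -5.19 ± 0.25 and -4.18 ± 0.71, and Jund, a subunit of AP-1, was at 3.74 ± 0.13 and 4.08 ± 0.27 (SD, n = 3). The median for this list turned to -0.036 without knockout replicate 1, -0.032 without knockout replicate 3 and -0.0062 with quantile normalization. It was 0.12 when wild type replicate 1 was left out, 0.14 when knockout replicate 2 was, and 0.19 with the slide as a block (11 higher and 2 lower). The list of progesterone synthesis and breakdown shares Star, Cyp11a1, Hsd3b1, Fdx1 and Hsd17b7 with the list of luteal genes. In it, 2 of 9 were higher and 7 lower, 0 were called, and the median was -0.24. It was -0.088 without wild type replicate 3, -0.12 when knockout replicate 2 was left out, -0.098 with array weights and -0.65 with the slide as a block. Cyp11a1, which cuts the cholesterol side chain, read 5.89, 5.92 and 6.62 in wild type and 6.23, 3.93 and 5.98 in the knockout, with knockout replicate 2 lowest as for Sfrp4. Fdx1, the ferredoxin that feeds it electrons, differed by -0.43 with a standard error of 0.36. Hsd3b1, which makes progesterone from pregnenolone and has close relatives, differed by 0.20 in a fit that dropped wild type replicates 1 and 2, whose spots were marked as outliers.

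Markers of other cells in a dissected ovary moved with some of these values. Of the 7 fat cell markers 4 were kept, with 1 higher and 3 lower and a median of -1.29, and their summed linear level was 1.04 to 18.6 times the 75th percentile in wild type and 1.13 to 1.96 times in the knockout. The direction rested on wild type replicate 1, since without it 3 were higher and 1 lower (median 0.11), and with the slide as a block all 4 were higher (median 1.19). Wild type replicate 1, the ovary highest in Cyp2e1, had the highest list median at 3.43, and Adipoq, the fat cell hormone adiponectin, read 0.16 there and -7.51 to -4.39 elsewhere. Fabp4, which carries fatty acids inside fat cells, read 2.20 in that ovary and -0.77 to -0.47 elsewhere. Plin1, which coats lipid droplets, did not stand apart there, at 0.23 beside 0.10 in knockout replicate 1 and -0.036 in knockout replicate 3. Lep was well above background on none of the 6 arrays. The part of fat cells in the Cyp2e1 values was not tested.

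Macrophage markers, 5 kept of 6 without Cd163, had a median of 0.13, with 4 higher and 1 lower. Leaving out knockout replicate 1 turned this to 1 higher and 4 lower (median -0.10), and leaving out knockout replicate 2 gave 0.37. Their summed level was 6.67 to 7.90 in wild type and 5.53 to 9.60 in the knockout, lowest in knockout replicate 2 and highest in knockout replicate 1. Csf1r, the receptor that macrophages depend on, read 2.34, 2.14 and 2.29 in wild type and 2.63, 1.85 and 2.20 in the knockout. Lyz2, their lysozyme, ran from 0.29 to 1.08. Cd68 read -3.12, -3.39 and -2.97 in wild type and -2.13, -2.87 and -2.20 in the knockout, a difference of 0.76. Its genotypes did not overlap, as in 8.96% of all kept probes. In limma it was the 1 marker of this list with an unadjusted p under 0.05, beside 3.95% of all kept probes, and it was not called. Endothelial markers were 6 higher and 1 lower of 7, with a median of 0.14 and a summed level of 8.07 to 10.8 in wild type and 8.78 to 12.7 in the knockout. Leaving out knockout replicate 1 turned them to 2 higher and 5 lower (median -0.032), and the slide as a block to 1 higher and 6 lower (median -0.016). Cldn5, a tight junction gene of vessels, was highest in knockout replicate 1, at 2.75, and Kdr, a receptor for VEGF, ran from 1.69 to 1.99. The part of these cells in the luteal values was not tested.

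Granulosa markers were 6 higher and 4 lower of 10, with a median of 0.059 and list medians of -0.54 in wild type replicate 3 and 0.60 in knockout replicate 3. The split was 2 higher and 8 lower (median -0.14) when knockout replicate 3 was left out, 3 and 7 (-0.12) when wild type replicate 3 was, 9 and 1 (0.30) when knockout replicate 1 was and 8 and 2 (0.65) with the slide as a block. Inhba, a subunit of activin and inhibin, was highest in knockout replicate 3 at 6.23 and lowest in wild type replicate 3 at 4.36, as was Inha. Theca markers (5 of 6, with no probe named Insl3) had a median of -0.022 with 2 higher and 3 lower. With the slide as a block 4 were higher and 1 lower (0.42). Cyp17a1, the androgen-making enzyme, ran from 2.39 in wild type replicate 3 to 4.25 in knockout replicate 1. Nr2f2 ran from 0.86 in wild type replicate 3 to 1.31 in knockout replicate 2. Gli1 and Ptch1 were also highest in knockout replicate 2, and Esr1 was highest in wild type replicate 1. The median of the 10 oocyte markers was -0.21, with all 10 lower in the knockout mean, and all 10 were higher with the slide as a block (median 0.31). Over the arrays left out in turn the oocyte median ran from -0.48 (wild type replicate 3) to -0.032 (knockout replicate 3). Gdf9 and Zp3, both made by oocytes, were lowest in wild type replicate 3, at 3.53 and 2.33.

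Surface epithelium markers were 1 higher and 7 lower of 8, with a median of -0.39. It was -0.17 when wild type replicate 1 was left out, -0.16 when knockout replicate 1 was, and -0.12 with the slide as a block. Krt18 and Msln were lowest in knockout replicate 1, at 3.60 and 2.45. Lrrn4 differed by -1.02 (standard error 0.32). It was the 1 marker of this list with an unadjusted p under 0.05 in limma, beside 3.95% of all kept probes, and was not called. Oviduct markers, 3 kept of 5 without Foxj1 and Dnah5, were all 3 lower with a median of -1.93, or -0.87 when wild type replicate 2 was left out. Ovgp1, the oviduct glycoprotein, read 4.83 in wild type replicate 2 and -3.49 to -1.13 elsewhere, and Rsph1, a gene of cilia, ran from -2.84 to -1.51. None of the 10 genes was highest in that ovary. Of 6 liver markers only Apoa1 and Ahsg were kept, and Alb, Ttr, Fgb and Apob were not well above background on any array. Apoa1, another apolipoprotein gene, was highest in knockout replicate 2, at 0.76, as Apoa4 was. Ahsg, the other liver marker kept, was lowest in that ovary, at -2.41, and read -1.63 to -1.22 elsewhere.

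**Figure D5:**
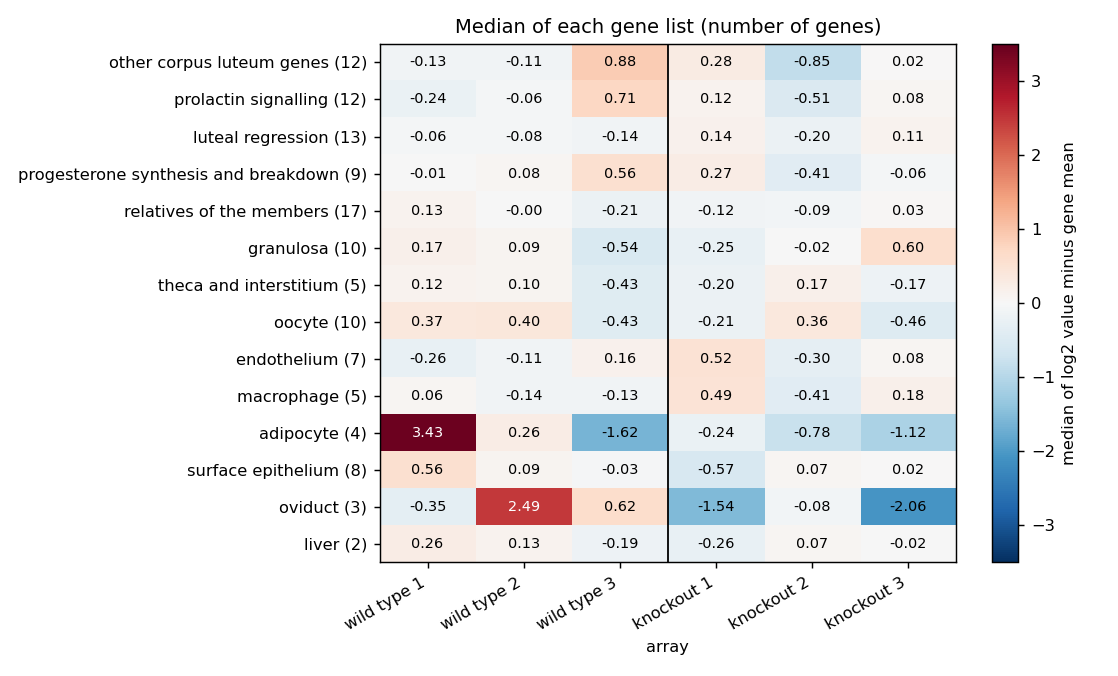
Median, over the kept genes of each list, of the log2 signal minus the gene's mean over the 6 arrays (colour and printed value), with the number of genes in brackets and ovaries in columns. The list of other luteal genes runs from -0.85 in knockout replicate 2 to 0.88 in wild type replicate 3, and the fat cell list stands at 3.43 in wild type replicate 1.

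Genes whose pattern over the 6 arrays was most like the mean over the 10 genes were sought among 1659 probes that were well above background on all arrays and had an SD of at least 0.5. The 8 with the highest Pearson r were Clec1b, Cdkn2b, Slit3, S100a4, Fbxl22, Plekhg4, Mpeg1 and Clec7a, with r from 0.98 down to 0.96, and 14 probes had an r of at least 0.95. Plekhg4 had the widest range of them, from -4.01 in knockout replicate 2 to 2.07 in knockout replicate 1. The 4 with the lowest r, from -0.94 to -0.89, were Btnl1, Zfp382, Bpifb4 and Myoz3, each highest in knockout replicate 2. The likeness to single genes was added after the values were seen. For Sfrp4 the closest were Gpx3, a secreted glutathione peroxidase, with an r of 0.98, and Fnbp1, with Cyp11a1 among the 8 closest at 0.96. The closest to Akr1c18 were Ear1, Itgax and Vcam1, at 0.99, 0.98 and 0.98, and for Cyp2e1 they were Pi16 and Cfb, at 0.98 and 0.96, with Fabp4 among the 8 closest at 0.93. With 6 arrays, many probes reach such values, and they carry no test.

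Promoters were searched because several of the genes had high r with each other and because prolactin acts through STAT5. RefSeq promoters (GRCm38.p6, 250 bases before to 50 after each start) were matched for 8 of the 10 genes, 10 promoters in all. Promoters of Onecut2 and Sfrp4 were not searched, so the counts leave out 1 gene of each of the 2 pairs with the highest r. On both strands, the STAT motif TTCNNNGAA was found in 2 of the 10, against 8.30% of 32851 promoters. The matches were in 1 of the 3 Prlr promoters, starting 110 bases before the start site, and in the Pcolce2 promoter, starting 170 bases before it. They are shown with 20 bases on each side, the match in capitals, as the letters behind that count.
Prlr: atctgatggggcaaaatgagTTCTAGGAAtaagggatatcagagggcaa
Pcolce2: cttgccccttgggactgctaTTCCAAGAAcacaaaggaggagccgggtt
These stretches are chr15:10223776-10223824 and chr9:95637438-95637486, both on the plus strand. The NR5A motifs CAAGGTCA and CAAGGCCA, the CRE motif TGACGTCA and the GATA motifs AGATAA and TGATAA were in 0 of the 10 promoters, against 3.92%, 1.79% and 18.6% of all promoters. A match is a description of letters in this window and says nothing of binding.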

How the data were processed

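Scanner files of 6 single-colour Agilent arrays hold intensity on a linear scale, deposited by the authors. Per the file headers they come from Agilent Feature Extraction 10.7.1.1 with probe coordinates on mm9, and the intensity is background-subtracted within each array. The deposited series table also holds intensity, and all its columns had a median of 119.8. It follows each array's scanner values (Spearman at least 0.9999), so it is linear and not centred by gene. No source used here says how it was scaled, and it was used as an alternative.

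Outlier spots (192 to 459 of 43020 per array) were left out and spots of a probe averaged. No spot was saturated. From the deposited intensity, log2 values minus each array's 75th percentile were computed. A probe was kept (24415) if every array of 1 or both genotypes had it well above background. The number of arrays limits the precision. Names came from the accession (26412), symbol (3854), older symbol (735) or the name in the file (8428).

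Genotypes were compared with limma 3.58.1 in R 4.3.3 (lmFit, eBayes, two-sided, Benjamini-Hochberg over all kept probes). Correlations used exact permutations computed in numpy 2.4.6, with ranks from scipy 1.17.1, and plots matplotlib 3.10.9. Tested on simulated data for this comparison (24180 probes), limma called 46 of 100 probes changed by 1 on the log2 scale and 74 of 100 changed by 2. The changed probes were drawn at random. Of the 9 luteal genes kept, 8 had an SD above the median of all kept probes, so these shares cannot be carried over to them. Samples were grouped by the genotype in the labels. Replicate numbers follow the order of the samples in the series, and the main fit did not use them as pairs.

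The members, lists and tests were chosen with earlier results of these data known. All 10 members are named, with the brightest probe standing for a gene. From each luteal, prolactin, regression, steroid and relatives list come the genes called or, with none called, the 3 with the smallest p, and from each cell type list the 2 brightest. Adipoq, Cd68, Lrrn4, Gli1, Ptch1 and the genes listed as not kept were added after their values were seen. Of genes like the mean over members, the 8 highest and 4 lowest by r are named.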

Additional observations from a re-analysis of the deposited data

How the results depend on the processing

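Alternatives were the deposited series table, scaling by the median, quantile normalization, normexp (offset 50), a stricter filter or none, the slide as a fixed block or slide 2 alone, a replicate block, array weights and each array left out. In all 16, 0 of the luteal genes were called. Over all probes 1 was called in the main fit, that of Selenbp1. The count was 0 with no filter, with the slide as a block and with the replicate block. It ran between 0 and 19 with an array left out (19 without wild type replicate 3). Where 0 probes were called, the targeted gene itself was missed, so those fits cannot decide whether luteal genes differed. Of 176 differences recomputed for the luteal probes, 165 kept their direction and 11 reversed. Without knockout replicate 2 these were Prlr at 0.11 and 0.093 (second probe), Ptgfr at 0.83 and Sfrp4 at 0.74. Array weights gave 0.041 for the second Prlr probe, 0.14 for Ptgfr and -0.028 for Apoa4, and left Prlr at -0.020 and Sfrp4 at -0.10 with no change of direction. Without wild type replicate 3 Parm1 was at 0.021 and Apoa4 at -0.015. Ptgr1 was at 0.014 without wild type replicate 1, and at 0.038 when knockout replicate 1 was left out. At the other end of the fits with an array left out, leaving out knockout replicate 1 gave -1.06 and -1.08 for the Prlr probes. It gave -1.71 for Ptgfr and -2.10 for Sfrp4. Leaving out wild type replicate 1 gave -0.78 for Parm1, leaving out wild type replicate 2 gave 0.57 for Apoa4, and leaving out knockout replicate 2 gave -0.21 for Ptgr1. Farther out, the slide as a block gave -1.15 and -1.40 for the Prlr probes, -1.21 for Parm1 and 1.10 for Apoa4. Scaling and background correction reversed no luteal gene. Same-numbered arrays had correlations of -0.33, 0.30 and -0.027, and the replicate block changed no other call. Replicate numbers follow the order of the samples in the series and not the numbers in their titles. These values therefore cannot decide whether the study paired its samples. The slide as a block leaves 1 wild type on the shared slide, and lone arrays are assumed to vary like the others. Signal over background limits Pcolce2.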

Other observations

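Relatives of the 10 genes were 8 higher and 9 lower in the knockout mean, of 17 kept among 25, with a median of -0.017 and 0 called. By the smallest p they were led by Ptgr2, a second prostaglandin reductase, at -0.23, Akr1c12, an aldo-keto reductase next in family to Akr1c18, at -0.24, and Ptgir, the prostacyclin receptor, at -0.84 (standard errors 0.12, 0.15 and 0.67). Ptgir was above background on 5 of 6 arrays. The gene Pcolce, a paralogue of Pcolce2, was well above background in all 6 ovaries and ran only from 5.07 in knockout replicate 2 to 6.08 in wild type replicate 3. Onecut1 and Onecut3 were not well above background on any array, unlike Onecut2.

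Sfrp2, another secreted Wnt antagonist, was chosen after its values were seen. It read -0.78, -3.35 and -2.60 in wild type and -0.25, -4.24 and 1.04 in the knockout, with wild type replicate 1 and knockout replicates 1 and 3 high, as for Akr1c18. Hsd17b7, chosen the same way, encodes an enzyme of estradiol and cholesterol synthesis that is known as a prolactin receptor-associated protein of the corpus luteum. It read -0.50, 2.13 and 2.89 in wild type and 2.97, -1.34 and -0.68 in the knockout. Wild type replicate 1 and knockout replicate 3, high in Akr1c18, were low in Hsd17b7, while wild type replicate 3 was high in Hsd17b7 and low in Akr1c18, and knockout replicate 1 was high in both. Cdkn1a, which encodes the cell cycle inhibitor p21, read -0.27, -0.69 and -0.39 in wild type and 1.13, -1.48 and 0.54 in the knockout. None of the 3 passed the threshold (limma, adjusted p = 1.00 for each).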
